A study of Arabidopsis thaliana with 42 samples.

Results

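Seedlings of No-0, a natural accession of Arabidopsis thaliana, were set against those of 18 other accessions which, like No-0, are parents of the MAGIC mapping population. No-0 contributed 2 of the 42 libraries of the series, both labelled biological replicates, and Bur-0, Can-0, Col-0, Ct-1, Edi-0, Hi-0, Kn-0, Ler-0, Mt-0, Oy-0, Po-0, Rsch-4, Sf-2, Tsu-0, Wil-2, Ws-0, Wu-0 and Zu-0 contributed 2 such libraries each, 36 in all, while 4 technical libraries of Col-0 were left out. No allele, transgene or treatment was given for any accession: after 5 days of stratification at 4 C, the plants of every group were raised on soil for some 11 days at 20 C, with days of 16 hours of light and 8 hours of dark. Polyadenylated RNA of whole seedlings was sequenced, and the deposited value of a gene is its RPKM, which corrects read counts for gene length and for sequencing depth.

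The labels do not say how many plants went into a library or at which hour they were taken, so p-values measure the spread between these libraries, and in whole seedlings fewer cells of a type cannot be told apart from less RNA per cell. By the labels, No-0 replicate 2 was run on lane 6 and No-0 replicate 1 on lane 5 of run 38, lanes shared with Mt-0, Oy-0 and Po-0. Depth estimated from the low values was 2984000 reads in No-0 replicate 2 and 2947000 reads in No-0 replicate 1, against 1197000 to 4783000 reads in the other 36 libraries, so that 3 reads on an exon model of 1500 bases were worth 0.670 and 0.679 RPKM in No-0, a floor that covers counting error only. At least 1 RPKM was reached by 17349 and 17373 nuclear genes in No-0 replicates 2 and 1, and by 16921 to 17660 in the other libraries. Leaf markers were abundant, as the seedling label has it: the summed level of 6 photosynthetic genes was 38527 and 43711 RPKM in No-0 replicates 2 and 1, against 31408 to 45433 RPKM in the others. Markers of leaf, root, flower and pollen, seed, stomatal lineage, meristem and senescent leaf, 38 in all, were measured. By limma between No-0 and the other accessions, 0 of the 38 passed after adjustment, beside 7.13% of all genes tested. An unadjusted p under 0.05 was found for 8, and the share of all genes at that level was not counted. With the lane as a block in the fit, 2 leaf markers passed (1 higher, 1 lower), 1 flower and pollen marker was lower and 1 marker of senescent leaf higher.

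Arabidopsis accessions are known to differ in chemical and immune defence. Glucosinolates are sulfur-rich compounds of the cabbage order that myrosinase enzymes split when tissue is damaged, and specifier proteins decide whether nitriles or isothiocyanates come out; side-chain genes such as AOP2 and AOP3 set which glucosinolate is made. Salicylic acid drives defence against biotrophic pathogens, jasmonate that against wounding and chewing insects. The circadian clock of plants is built of morning genes such as CCA1 and of evening genes such as TOC1 that repress each other, so the level of these transcripts depends on the time of day.

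Levels in No-0 were tested against the mean of the other 18 accessions with limma on log2(RPKM + 1), over 20101 nuclear genes; every log2 difference below is on that scale, which understates the change of low genes. At an adjusted p under 0.05, 695 genes (3.46%) were higher in No-0 and 738 (3.67%) lower, 1433 in all (7.13%), of which 408 differed by at least 1 and 67 by at least 2. This test asks whether No-0 departs from the average of the others by more than libraries of one accession differ, and a gene can pass it in company: No-0 had the highest mean of the 19 accessions in 296 and the lowest in 377 of the 1433 genes. When the accession is the unit, so that No-0 is judged against the spread among the other 18 means, 12 genes passed (8 higher, 4 lower). The calls also lean on single libraries, since 802 of the 1433 genes were still called without No-0 replicate 1, 578 without No-0 replicate 2 and 361 in both cases.

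A stricter group of 62 genes is called set apart here: past the threshold, at least 1 from the mean of the others on the log2 scale, and with both No-0 libraries above, or both below, all other 36. They are 0.308% of the genes tested, 31 (0.154%) higher and 31 (0.154%) lower in No-0. Without the conditions on size and test, both No-0 libraries lay above all other 36 in 88 genes (0.438%) and below them in 65 (0.323%). By their annotation the genes set apart include a regulator of glucosinolate breakdown, a glucosinolate side-chain gene, the defence regulator ACD6 and a calcium channel. Proteins with a Toll/interleukin receptor domain and receptor kinases are also among them. These are examples: classes were not counted by direction, so no class is given a direction here. Within the lane pair of No-0, that is against Mt-0, Oy-0 and Po-0 alone, 46 of the 62 passed the threshold, beside 569 of all 20101 genes. The same libraries served to define the 62, which favours a pass, so this count is no independent support. All 62 had the same direction there, which the definition fixes, since the libraries of these accessions are among the 36.

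ESM1, whose product favours isothiocyanates over nitriles when glucosinolates are split, read 1108 and 826 RPKM in No-0 replicates 2 and 1, against 11.6, 62.2 and 444 RPKM at the lowest, median and highest of the other 36 libraries. Both No-0 libraries lay above the next accession, Col-0, which averaged 441 ± 3.99 RPKM (SD, n = 2), and No-0 exceeded the mean of the others by 3.86 ± 0.08 on the log2 scale (SE; limma, adjusted p = 5.51e-21). ESM1 did not pass with the accession as the unit (adjusted p = 0.919). In the TAIR10.1 genome ESM1 lies on chromosome 3 at 4729399 to 4731847, plus strand, and 21.0% of its 31-base words occur elsewhere in the genome, so reads could be shared with its relatives.

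TIR, a short protein with a Toll/interleukin receptor domain of the kind that starts immune signalling, read 167 and 146 RPKM in No-0 replicates 2 and 1 and 0, 37.2 and 79.0 RPKM at the lowest, median and highest of the others, 3 of which were listed at 0. The difference was 2.73 ± 0.19 (log2, SE; adjusted p = 2.32e-10). It did not pass with the accession as the unit (adjusted p = 0.999). Its neighbour AT1G72940, annotated with the same domain, was set apart as well, at 8.78 and 6.06 RPKM in No-0 replicates 2 and 1 against at most 5.17 RPKM in the others. Another gene of this cluster, AT1G72910, carried the code for a missing value in both No-0 libraries and in no other library, where it reached up to 34.7 RPKM. On chromosome 1 these genes run in the order AT1G72910 (27435306 to 27437192), TIR (27439240 to 27440464) and AT1G72940 (27441981 to 27443859), all on the plus strand. They share sequence: 39.5% of the 31-base words of AT1G72910, 43.9% of those of TIR and 20.7% of those of AT1G72940 occur elsewhere in the genome, so the split of reads among them is uncertain.

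A second pair of neighbours was set apart on chromosome 3. AT3G44790, annotated as a TRAF-like protein (16328697 to 16330535, plus strand), read 22.8 and 24.3 RPKM in No-0 replicates 2 and 1, against 0, 0.806 and 3.77 RPKM at the lowest, median and highest of the others. AT3G44800, annotated as a protein with a meprin and TRAF homology domain (16343333 to 16344834, plus strand), read 2.90 and 3.30 RPKM in No-0 replicates 2 and 1 and at most 2.65 RPKM elsewhere. AT3G44790 also passed with the accession as the unit (adjusted p = 0.0439), AT3G44800 did not (adjusted p = 0.503).

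Other genes of the higher group were near 0 in most accessions. AT5G37125, annotated as a pseudogene, read 6.44 and 11.2 RPKM in No-0 replicates 2 and 1 and was listed at 0 in all 36 other libraries. AT3G28153, also annotated as a pseudogene, read 13.7 and 21.2 RPKM in No-0, against 0 in 29 of the other libraries and at most 6.64 RPKM. AT4G07825, a protein of unknown function, read 27.7 and 30.3 RPKM in No-0, with 26 of the other libraries at 0 and the highest at 20.6 RPKM. In 8 of the 31 higher genes the median of the other libraries was 0, and 13 of the 31 averaged at least 10 RPKM in No-0. Values near 0 rest on few reads in the other accessions.

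Abundant genes in the higher group included AT5G05040, annotated as a cystatin-like protein, at 56.6 and 77.1 RPKM in No-0 replicates 2 and 1 against 0, 2.63 and 32.2 RPKM at the lowest, median and highest of the others. SCPL9, a serine carboxypeptidase-like protein, read 25.1 and 24.6 RPKM in No-0 and 4.64, 10.3 and 22.7 RPKM in the others, so the No-0 libraries stood just above the highest, from Sf-2. The detoxifying glutathione transferase GSTU7 likewise cleared the others narrowly, with 23.47 and 21.8 RPKM in No-0 and up to 21.4 RPKM elsewhere. XTH19, a cell wall enzyme that cuts and rejoins xyloglucan, PIRL7, an intracellular leucine-rich repeat protein, and NAP5, an ABC protein, were set apart at low levels, between 1.76 and 5.08 RPKM in No-0. Each of these calls was lost without one No-0 library: the adjusted p was 0.0511 for XTH19 and 0.0801 for PIRL7 without No-0 replicate 2, and 0.0855 for NAP5 without No-0 replicate 1.

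**Figure D1:**
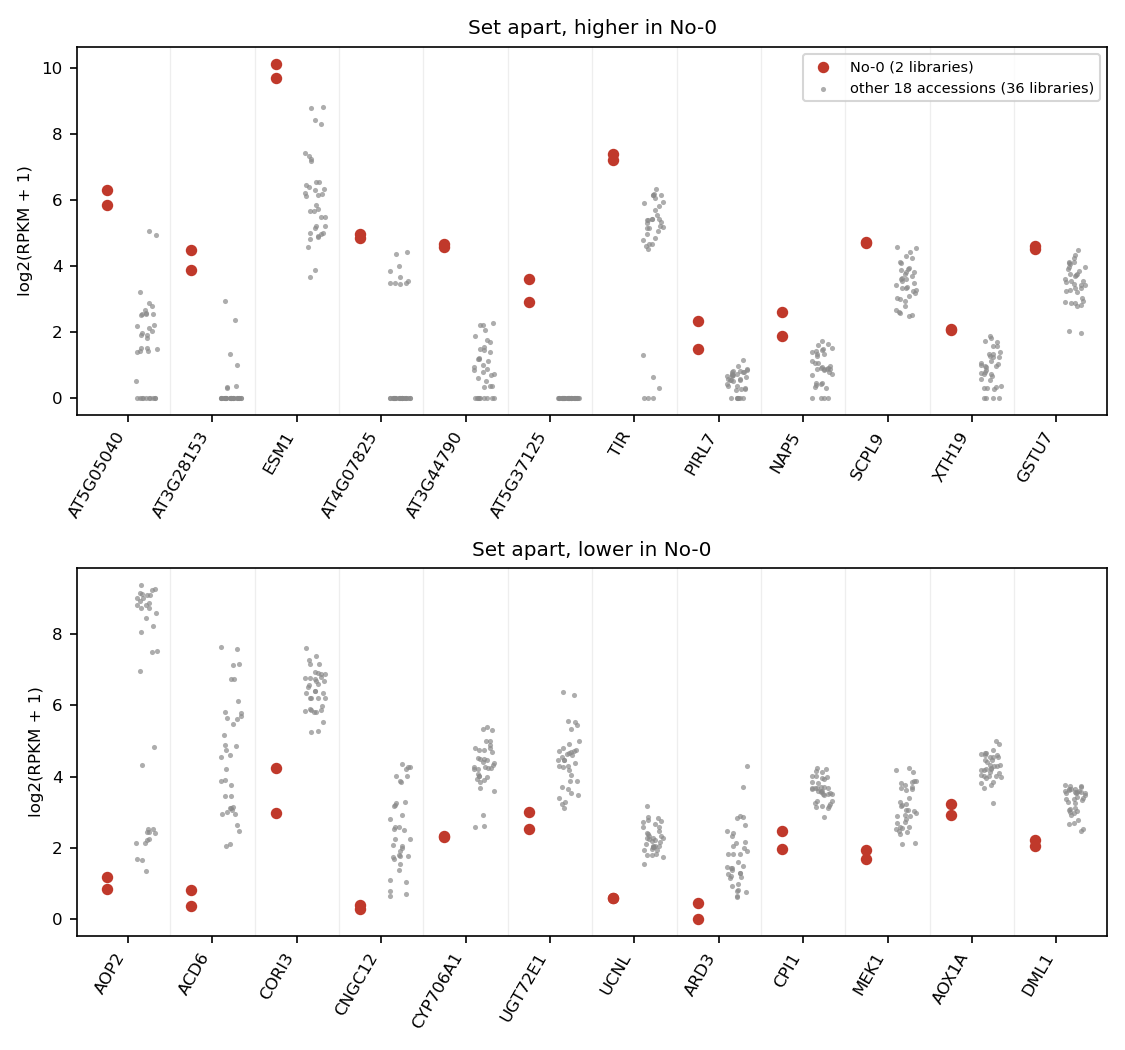
Levels as log2(RPKM + 1) of the 12 named genes higher in No-0 (top) and the 12 lower (bottom), with each No-0 library as a red point and each of the other 36 libraries as a grey point. In all 24 genes both red points lie outside the grey range, as for ESM1 (1108 and 826 RPKM in No-0 replicates 2 and 1, up to 444 RPKM elsewhere) and AOP2 (1.29 and 0.781 RPKM in No-0 replicates 2 and 1, at least 1.53 RPKM elsewhere).

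Among the genes set apart below the others, AOP2, the dioxygenase gene that forms alkenyl glucosinolates, read 1.29 and 0.781 RPKM in No-0 replicates 2 and 1, against 1.53, 282 and 668 RPKM at the lowest, median and highest of the others. No-0 was the lowest, but 12 other libraries, those of Kn-0, Rsch-4, Tsu-0, Ct-1, Wil-2 and Ler-0, read under 5 RPKM as well and the rest at least 19.1 RPKM, and the mean difference of -5.25 ± 0.21 (log2, SE; adjusted p = 1.98e-15) lies between No-0 and a mean over both kinds of accession. With the accession as the unit it did not pass (adjusted p = 0.999). The gene lies on chromosome 4 at 1351688 to 1354096, minus strand, and the reference annotation, made from Col-0, lists it as a transcribed pseudogene.

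ACD6, an ankyrin-repeat membrane protein that raises salicylic acid defence, read 0.757 and 0.280 RPKM in No-0 replicates 2 and 1 and 3.13, 22.8 and 197 RPKM at the lowest, median and highest of the others. Both No-0 libraries lay below all others, and Tsu-0, the next lowest accession, averaged 3.94 ± 0.913 RPKM (SD, n = 2); the difference was -4.01 ± 0.23 (log2, SE; adjusted p = 3.13e-12). With the accession as the unit it did not pass (adjusted p = 0.999). CNGC12, a cyclic nucleotide-gated calcium channel that promotes resistance, read 0.305 and 0.206 RPKM in No-0 and 0.561, 4.23 and 19.2 RPKM in the others, though an antisense gene overlaps it and 23.95% of its 31-base words occur elsewhere. The No-0 values and the lowest other value of CNGC12 lie under 0.670 RPKM, the 3-read floor in No-0, so the gap between them rests on few reads.

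CORI3, a cystine lyase induced by coronatine and wounding, read 17.7 and 6.88 RPKM in No-0 replicates 2 and 1 and 37.1, 87.5 and 196 RPKM at the lowest, median and highest of the others. Both No-0 values fell short of every other library although they themselves differed by 1.25 on the log2 scale; the difference from the mean of the others was -2.83 ± 0.22 (SE; adjusted p = 1.43e-09) and held with the accession as the unit (adjusted p = 0.0452). AT3G56060, annotated as a glucose-methanol-choline oxidoreductase, read 5.99 and 4.88 RPKM in No-0 and 19.7, 33.7 and 52.6 RPKM in the others, with an adjusted p of 0.0031 with the accession as the unit. AT2G47250, annotated as an RNA helicase, read 8.80 and 7.57 RPKM in No-0 and 19.3, 25.6 and 30.9 RPKM in the others, a tight range that gave the smallest such p of the lower genes (0.000219).

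DML1, also called ROS1, the DNA glycosylase that removes cytosine methylation, read 3.17 and 3.63 RPKM in No-0 replicates 2 and 1 and 4.55, 9.58 and 12.5 RPKM at the lowest, median and highest of the others. AOX1A, the alternative oxidase of mitochondria, read 6.57 and 8.42 RPKM in No-0 and 8.64, 18.3 and 30.9 RPKM in the others. MEK1, a MAP kinase kinase of stress signalling, read 2.80 and 2.23 RPKM in No-0 and 3.35, 7.32 and 17.99 RPKM in the others. These 3 genes were lower by 1.18 (DML1), 1.19 (AOX1A) and 1.35 (MEK1) on the log2 scale, and none passed with the accession as the unit.

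UGT72E1, a glucosyltransferase of lignin precursors, was lower by 1.69 and CPI1, the cyclopropyl isomerase of sterol synthesis, by 1.40. CYP706A1, a cytochrome P450, was lower by 1.97, but 50.6% of its 31-base words occur elsewhere in the genome. The kinase UCNL read 0.503 and 0.509 RPKM in No-0 against at least 1.90 RPKM elsewhere, and ARD3, an acireductone dioxygenase of methionine recycling, 0 and 0.373 RPKM against at least 0.548 RPKM. A further 3 genes were listed at 0 in both No-0 libraries and above 0 in every other one: the S-locus lectin kinase AT1G61430, AT3G62050, annotated as a putative endonuclease or glycosyl hydrolase, and the F-box protein AT1G78750, whose call was lost without either No-0 library (adjusted p = 0.0588 and 0.0827 without replicates 1 and 2). In 10 of the 31 lower genes the other libraries had a median of at least 10 RPKM.

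Aliphatic glucosinolate genes gave more calls than any other list measured. Of 28 measured genes of aliphatic glucosinolate synthesis, 3 were higher and 12 lower in No-0, with a median difference of -0.24, beside 3.46% higher, 3.67% lower and a median of 0.01 over all genes. The lower ones belong to successive steps of the pathway: MAM3 of methionine chain elongation, the aminotransferases BCAT4 and BCAT3, IPMI1 and IMD1, the chloroplast transporter BAT5, the core enzymes CYP79F1, CYP83A1 and SUR1, the sulfotransferases SOT17 and SOT18, and AOP2. CYP83A1, which oxidises the aldoximes of this pathway, read 156 and 184 RPKM in No-0 replicates 2 and 1 against 188, 273 and 407 RPKM at the lowest, median and highest of the others. Both No-0 libraries were below all others, by 0.70 ± 0.08 on the log2 scale from their mean (SE; adjusted p = 1.23e-06), short of the size asked of genes set apart. BCAT4 and CYP79F1 were not lower against Mt-0, Oy-0 and Po-0 alone, where their differences were 0.82 (adjusted p = 0.0419) and 0.40 (adjusted p = 0.14). Several of the smaller calls were lost when one No-0 library was left out: without replicate 1 the adjusted p was 0.294 for MAM3, 0.355 for BCAT3 and 0.184 for SOT17, and without replicate 2 it was 0.119 for BAT5, 0.318 for CYP79F1 and 0.0642 for SOT17.

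The 3 higher genes of this list were AOP3, MYB29 and AOP1. AOP3, which forms hydroxyalkyl glucosinolates, read 116 and 129 RPKM in No-0 replicates 2 and 1 and 0, 0.177 and 206 RPKM at the lowest, median and highest of the others, so No-0 was one of several accessions with the transcript and not the highest. MYB29, an activator of the pathway, read 32.9 and 44.7 RPKM in No-0 and 0, 19.9 and 58.3 RPKM in the others, also within their range. AOP1 read 10.3 and 23.8 RPKM in No-0 replicates 2 and 1; its call, at an adjusted p of 0.0454, was lost without No-0 replicate 1 (adjusted p = 0.861) and, narrowly, without any of several libraries of other accessions.

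In the hydrolysis list 3 of 10 measured genes were higher and 1 was lower, beside 3.46% and 3.67% of all genes, with a median difference of 0.15. Beside ESM1, the myrosinase TGG2 read 552 and 366 RPKM in No-0 replicates 2 and 1 and 1.48, 275 and 793 RPKM at the lowest, median and highest of the others. TGG1, the other leaf myrosinase, read 1539.5 and 1331 RPKM in No-0 and 795, 1077 and 1347 RPKM in the others. ESP, the specifier protein that yields nitriles and epithionitriles, was the lower one, at 43.1 and 49.2 RPKM in No-0 against 21.2, 2441 and 6653 RPKM in the others. TGG1 thus exceeded the mean of the others by 0.42, TGG2 by 3.08, and ESP fell short of it by 4.35 on the log2 scale, and of these 3 only TGG1 in No-0 replicate 2 was outside the range of the others. The call of TGG1 was lost without that library (adjusted p = 0.116). Of the 14 measured genes of indole glucosinolate synthesis 1, IGMT1, was lower, a call lost without either No-0 library (adjusted p = 0.105 and 0.281 without replicates 1 and 2), and the other 13 did not pass the test.

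Salicylic acid genes leaned to lower levels in No-0. Of 26 measured members 9 were lower and 0 higher by limma at an adjusted p under 0.05, beside 3.67% and 3.46% of all genes. At an unadjusted p under 0.05, 14 were lower and 0 higher, a level at which all genes were not counted. The median difference was -0.53. The 9 lower genes were ACD6, the signalling partners EDS1, PAD4 and SAG101, the transcription factor WRKY54, the NPR1 interactor NIMIN1, and PR1, PR2 and AED1, whose products accumulate in resistant leaves. Without No-0 replicate 1 only ACD6 and WRKY54 of the 9 were still called, and the adjusted p of the other 7 lay between 0.0548 (PAD4) and 0.516 (SAG101). WRKY54 read 0.975 and 1.23 RPKM in No-0 replicates 2 and 1 and 0.966, 12.1 and 33.2 RPKM at the lowest, median and highest of the others. The No-0 libraries lay at the low end of the other libraries without leaving their range, lower than the mean by 2.37 ± 0.24 on the log2 scale (SE; adjusted p = 1.11e-07). EDS1, a lipase-like hub of immune signalling, read 8.08 and 6.64 RPKM in No-0 and 7.34, 11.6 and 26.3 RPKM in the others, where No-0 replicate 1 was the lowest of all 38. PAD4, its partner, read 3.21 and 2.39 RPKM in No-0 and 2.32, 5.39 and 17.98 RPKM in the others, inside their range.

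PR1, the classical marker of this pathway, read 1.73 and 1.17 RPKM in No-0 replicates 2 and 1 and 0, 13.1 and 948 RPKM at the lowest, median and highest of the others, 5 of which were listed at 0. Its call (adjusted p = 0.0282) was lost without No-0 replicate 1 (adjusted p = 0.177) and without No-0 replicate 2 (adjusted p = 0.16). The libraries of Ws-0 differed in PR1 by 4.88 on the log2 scale, so this gene varies between libraries of one accession too. NIMIN1 was listed at 0 in both No-0 libraries and read up to 10.4 RPKM elsewhere; its call was also lost without either No-0 library (adjusted p = 0.139 and 0.19 without replicates 1 and 2). Within the lane pair ACD6, WRKY54, PR1 and NIMIN1 remained below Mt-0, Oy-0 and Po-0 (adjusted p = 0.000769, 0.00241, 0.0223 and 0.00238).

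Resistance genes leaned the same way, with 7 of 19 measured members lower and 0 higher by limma at an adjusted p under 0.05. Over all genes 3.67% were lower and 3.46% higher. At an unadjusted p under 0.05, 9 members were lower and 2 higher, and the median difference was -0.32. CSA1 and ADR1, both encoding nucleotide-binding immune receptors, were listed at 0 in both No-0 libraries, and they were also at 0 in 13 (CSA1) and 3 (ADR1) of the other 36 libraries. The median and highest of the others were 0.156 and 24.3 RPKM for CSA1, and 2.31 and 4.89 RPKM for ADR1. For CSA1 that median lies under 0.670 RPKM, the 3-read floor in No-0, so many other libraries were near 0 too. RPP5, a receptor for downy mildew, read 1.42 and 1.71 RPKM in No-0 replicates 2 and 1 and 0, 7.40 and 23.48 RPKM at the lowest, median and highest of the others, though 52.3% of its 31-base words occur elsewhere and an antisense gene overlaps it. WRR4, a receptor for white rust, read 0.295 and 1.195 RPKM in No-0 and 0, 3.28 and 5.46 RPKM in the others. RPP13 and ZAR1 were lower by 0.61 and 0.32 on the log2 scale, calls lost without No-0 replicate 1 (adjusted p = 0.233 and 0.264). Receptor genes of this class are known to differ in sequence and presence between accessions, and the part of read mapping in these values was not tested.

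**Figure D2:**
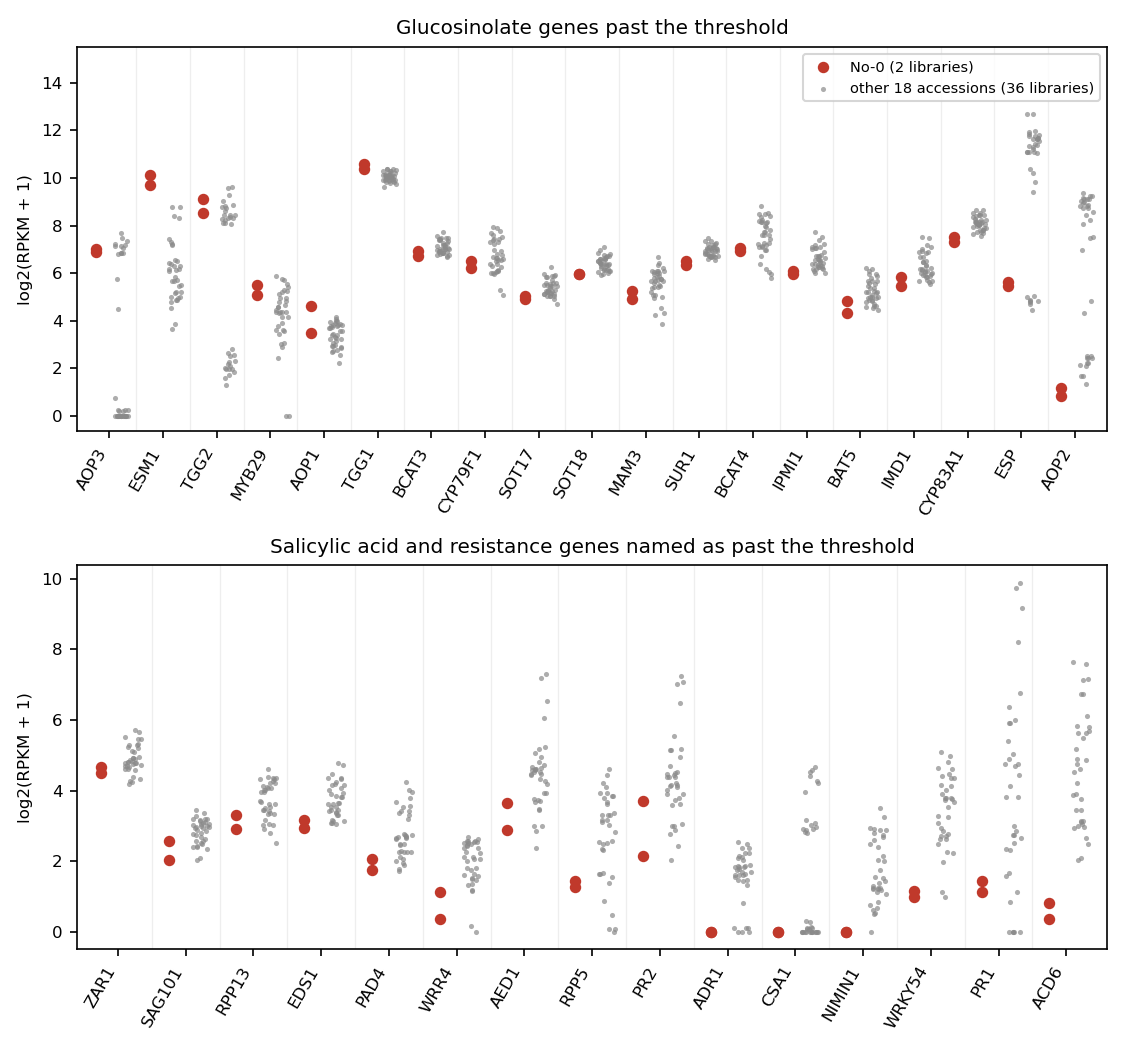
Levels as log2(RPKM + 1) of the genes named here as past the threshold in the aliphatic glucosinolate synthesis and hydrolysis lists (top) and in the salicylic acid and resistance lists (bottom), ordered by the difference between No-0 (red, each library) and the other accessions (grey, 36 libraries). ESM1 and ACD6 lie outside the grey points, while the grey points of AOP3, TGG2 and ESP fall apart into high and low ones, with No-0 among the high ones for AOP3 and TGG2 and near the low ones for ESP.

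Flowering time and the metabolic lists gave up to 3 calls each, beside 7.13% of all genes. In the flowering time list 2 of 26 measured genes were higher and 1 lower, or 2 lower with the sequencing lane as a block. MAF5, a repressor related to FLC, read 3.94 and 3.99 RPKM in No-0 replicates 2 and 1 and 0, 0.570 and 10.9 RPKM at the lowest, median and highest of the others, and FRI, the activator of FLC, read 1.71 and 0.334 RPKM in No-0 and 0.213, 2.77 and 6.03 RPKM in the others. AGL24, a promoter of flowering, read 5.23 and 11.8 RPKM in No-0 replicates 2 and 1, replicate 1 being the highest of all 38 libraries. Without No-0 replicate 1 neither FRI nor AGL24 was called (adjusted p = 0.579 and 0.775). FLC itself read 12.2 and 9.86 RPKM in No-0 and 0.565, 8.61 and 144 RPKM in the others and did not pass the test (adjusted p = 0.457); against Mt-0, Oy-0 and Po-0 alone it was higher in No-0 by 2.26 on the log2 scale (adjusted p = 0.0148).

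Photosynthesis, starch and chlorophyll genes gave 2 calls each. PSBO2, a subunit of the oxygen-evolving complex, read 1739 and 2032 RPKM in No-0 replicates 2 and 1 and 1078, 1376 and 1721 RPKM at the lowest, median and highest of the others, above all of them in both libraries, by 0.47 ± 0.08 on the log2 scale (SE; adjusted p = 0.000331). It was one of 2 genes called, both higher, among 26 of photosynthesis. With the lane as a block 4 were higher and 1 lower. The other, RBCS1B, a small subunit of Rubisco with 22.8% of its 31-base words found elsewhere, lost its direction against Mt-0, Oy-0 and Po-0 alone, where the difference was -0.035. Among 16 starch genes 2 were higher, PHS1 and DPE2, by 0.30 and 0.28; among 16 genes of chlorophyll synthesis 2 were higher, CHLI2 and PORC, by 0.34 and 0.20. Of these 6 calls that of PSBO2 held when either No-0 library was left out, and the other 5 were lost in one case or both, at an adjusted p of 0.157 (PORC) to 0.493 (DPE2) for the larger of the p-values.

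In flavonoid synthesis 2 of 20 genes were higher, CHI and UGT78D1, and 1 was lower, the regulator TT8. In iron nutrition 1 of 21 was higher, NAS3 of nicotianamine synthesis, and 1 lower, the transporter OPT3. In copper nutrition 1 of 15 was higher, the superoxide dismutase FSD1, and 2 were lower, the chaperone CCH and the transporter COPT1. In nitrogen and sulfur assimilation 2 of 22 were higher, SDI1 and APR3, and 1 lower, GLN1;2. Of 17 light and growth regulators 1 was higher, the photoreceptor CRY2, a call lost with the lane as a block (adjusted p = 0.0510), and 1 lower, IAA19. Their differences lay between -1.08 (IAA19) and 1.06 (SDI1) on the log2 scale. Of 17 genes often used as references 2 were lower, ACT2 by 0.41 and UBQ10 by 0.27. When one No-0 library was left out, only the calls of UGT78D1 and APR3 among these 15 genes were made both times, and the larger of the p-values of the other 13 ran from 0.165 (GLN1;2) to 0.695 (NAS3). By limma 0 members passed at an adjusted p under 0.05, and 9 did at an unadjusted p under 0.05, among 14 genes of phosphate starvation, 12 of sugar starvation, 10 of heat shock, 12 ribosomal genes, 12 morning clock genes and 13 clock output genes in all.

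Some nuclear genes had no value in No-0. Both No-0 libraries carried the missing code in 2826 nuclear genes, against 2651 to 2890 per library in the others, and 23 genes lacked a value in No-0 and in no other accession. Of these 23, 8 reached 1 RPKM in at least 2 libraries. Beside AT1G72910, they included the adjacent genes AT5G51620, a protein of uncharacterised family UPF0172, and AT5G51630, a receptor of the TIR-NBS-LRR class, on chromosome 5 (20967034 to 20968506 and 20969128 to 20975940, both on the plus strand). AT5G51620 read 0.645 to 19.5 RPKM and AT5G51630 0 to 2.80 RPKM in the other accessions. The files do not explain the code, so these genes count as not measured rather than silent.

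The libraries of No-0 differed from each other in more genes than those of any other accession. Between No-0 replicate 2 and No-0 replicate 1, 697 genes (3.47%) were higher in replicate 2 by 1 or more in log2(RPKM + 1) and 597 (2.97%) higher in replicate 1, 1294 in all (6.44%), whereas 406 to 1222 genes, 560.5 at the median, differed by that much in the other accessions. With 1 library on each side there is no test of a single gene here, and the values are descriptions of these libraries. Small counts widen such differences, and the accession next to No-0, Ws-0, held the shallowest library. Among the 9825 genes with at least 10 RPKM in a No-0 library, 449 (4.57%) differed by at least 1, of which 267 (2.72%) were higher in replicate 2 and 182 (1.85%) higher in replicate 1. The other accessions held 34 to 177 such genes, 65.0 at the median, with Tsu-0 and Rsch-4 next to No-0 at 177 and 164. Mt-0, Oy-0 and Po-0, run on the same lanes, had 51, 92 and 99.

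In 365 of these 449 genes the difference between the No-0 libraries was larger than in any other accession. The 449 were chosen by the size of that same difference, which favours this outcome. Over all genes No-0 had the largest difference in 2497 (12.4%), and each of the other accessions in 428 to 2078, the most in Ws-0. The Pearson correlation of log2 values across the 20101 genes was 0.964 between the No-0 libraries and 0.969 to 0.984 between those of the other accessions. Each No-0 library was nonetheless closer to its partner than to any other: the best match elsewhere had a correlation of 0.958 for replicate 2 (Tsu-0 replicate 1) and 0.958 for replicate 1 (Po-0 replicate 2). Estimated depth was nearly equal between the No-0 libraries. Of 17 reference genes, 12 ribosomal genes and 26 photosynthesis genes 0 differed by 1 or more, beside 6.44% of all genes, and a technical part in the difference was not tested. The summed level of root markers was 203 RPKM in replicate 2 and 341 RPKM in replicate 1, within the 101 to 476 RPKM of the other libraries. Single root markers did not follow the sum: the median difference of the 5 tested was -0.045 on the log2 scale. Of these 5, 1 was higher in replicate 2 by at least 1 and 0 in replicate 1, beside 3.47% and 2.97% of all genes. The part of root material in the difference was not tested. Of the 62 genes set apart only 2, CORI3 and AT2G34320, differed by at least 1 between the No-0 libraries.

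**Figure D3:**
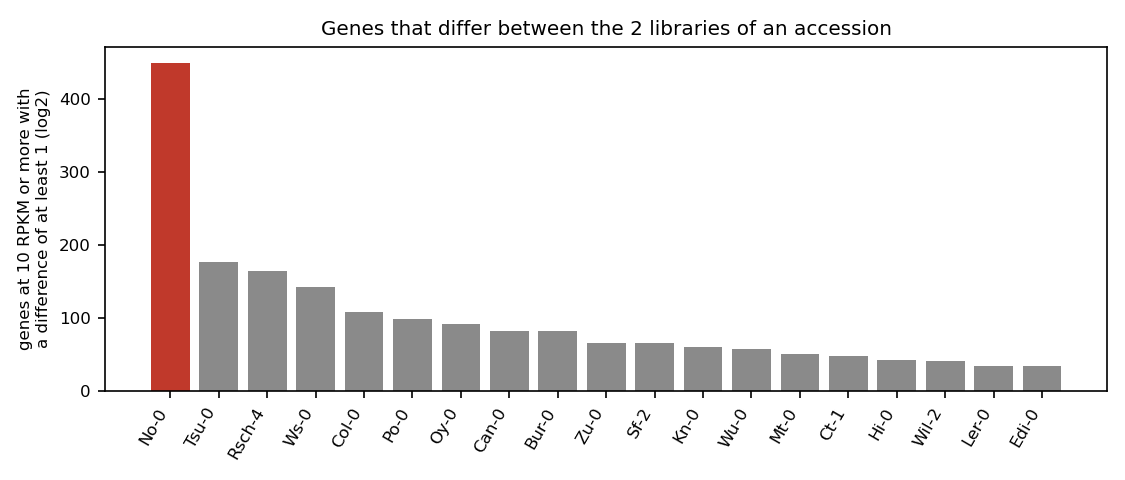
Number of genes with at least 10 RPKM in a library of the accession that differ by at least 1 in log2(RPKM + 1) between its 2 libraries, for No-0 (red) and the other 18 accessions (grey). No-0 stands at 449 and the next accession, Tsu-0, at 177.

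Clock genes separated the No-0 libraries in opposite directions by list. Morning genes were lower in replicate 2: of 12 measured, 7 were higher in replicate 1 by at least 1 and 1 was higher in replicate 2, with a median difference of -1.50, beside 2.97% and 3.47% of all genes. Genes of the day and evening went the other way, with 7 of 13 higher in replicate 2, 0 higher in replicate 1 and a median of 1.13. In no other accession did more than 1 of the 12 morning genes or more than 3 of the 13 evening genes differ by that much. The lists were chosen with the earlier observation of CCA1, FKF1 and GRP7 in these libraries known. Against the other accessions, 0 of the 12 morning genes and 1 of the 13 evening genes passed by limma (1 and 3 at an unadjusted p under 0.05); that gene, CHE, a TCP repressor of CCA1, lay 0.35 below the mean of the others and was not called without No-0 replicate 2 (adjusted p = 0.69).

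Among morning genes, LNK3 and LNK4, which belong to a family of coactivators working with REVEILLE factors, read 2.95 and 8.08 RPKM in No-0 replicate 2 against 24.3 and 42.8 RPKM in replicate 1. RVE8, a MYB-like activator of evening genes, read 1.14 RPKM in replicate 2 and 9.92 RPKM in replicate 1, and PRR9, a repressor of CCA1, 1.07 and 8.84 RPKM, although 47.2% of the words of PRR9 occur elsewhere. LNK2 read 25.4 RPKM in replicate 2 and 74.7 RPKM in replicate 1. LHY, the close partner of CCA1, read 1.51 RPKM in replicate 2 and 3.77 RPKM in replicate 1, a difference of -0.93 on the log2 scale that is under 1 in size and close to that of Po-0, -0.89. For CCA1 itself, replicate 2 with 2.92 RPKM ranked 35 of 38 libraries from the top and replicate 1 with 23.3 RPKM ranked 10, inside the 1.13 to 38.1 RPKM of the other accessions. RVE2 was the exception, at 8.29 RPKM in replicate 2, the highest of 38 libraries, and 1.34 RPKM in replicate 1. RVE4, in contrast, read 10.8 RPKM in replicate 2, the lowest of 38 libraries, and 20.7 RPKM in replicate 1; over all genes replicate 2 was the lowest in 2.01% and replicate 1 in 1.76%.

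PRR5, a pseudo-response regulator, read 73.5 RPKM in replicate 2, the highest of 38 libraries, and 15.49 RPKM in replicate 1, which ranked 29. ELF4 and LUX, partners in the evening complex that represses transcription at night, read 71.7 and 57.7 RPKM in replicate 2 against 10.14 and 14.7 RPKM in replicate 1. TOC1 read 45.5 RPKM in replicate 2 and 11.7 RPKM in replicate 1, and GI, which stabilises the F-box protein ZTL, 54.0 and 24.1 RPKM. The photoperiod F-box gene FKF1 differed most of this list, by 3.55 on the log2 scale, with replicate 2 at 67.4 RPKM above every other library and replicate 1 at 4.85 RPKM ranking 28. PRR7 and ZTL, by contrast, read 79.6 and 15.4 RPKM in replicate 2 and 78.8 and 17.41 RPKM in replicate 1.

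Output genes differed in both directions, with 4 of 13 higher in replicate 2 and 5 higher in replicate 1, beside 3.47% and 2.97% of all genes. COR27, a regulator of freezing tolerance and of the clock, differed most among the clock lists, by 4.37 on the log2 scale, with 32.5 RPKM in replicate 2 and 0.615 RPKM in replicate 1. The RNA-binding protein GRP8 read 614 RPKM in replicate 2 and 185 RPKM in replicate 1, a difference of 1.72 on the log2 scale, beside 3.01 for its relative GRP7. BBX25 and BBX18, B-box zinc finger proteins of light signalling, read 12.1 and 7.67 RPKM in replicate 2 against 45.1 and 27.2 RPKM in replicate 1. The catalase CAT2 read 303 RPKM in replicate 2 and 684 RPKM in replicate 1, CAT3 1343 and 866 RPKM. Starch genes moved less: PHS2, a cytosolic glucan phosphorylase, and BAM3, a chloroplast beta-amylase of starch breakdown, read 308 and 207 RPKM in replicate 2 against 129 and 90.5 RPKM in replicate 1, while GBSS1, the synthase of amylose, read 15.6 RPKM in replicate 2 and 34.5 RPKM in replicate 1.

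**Figure D4:**
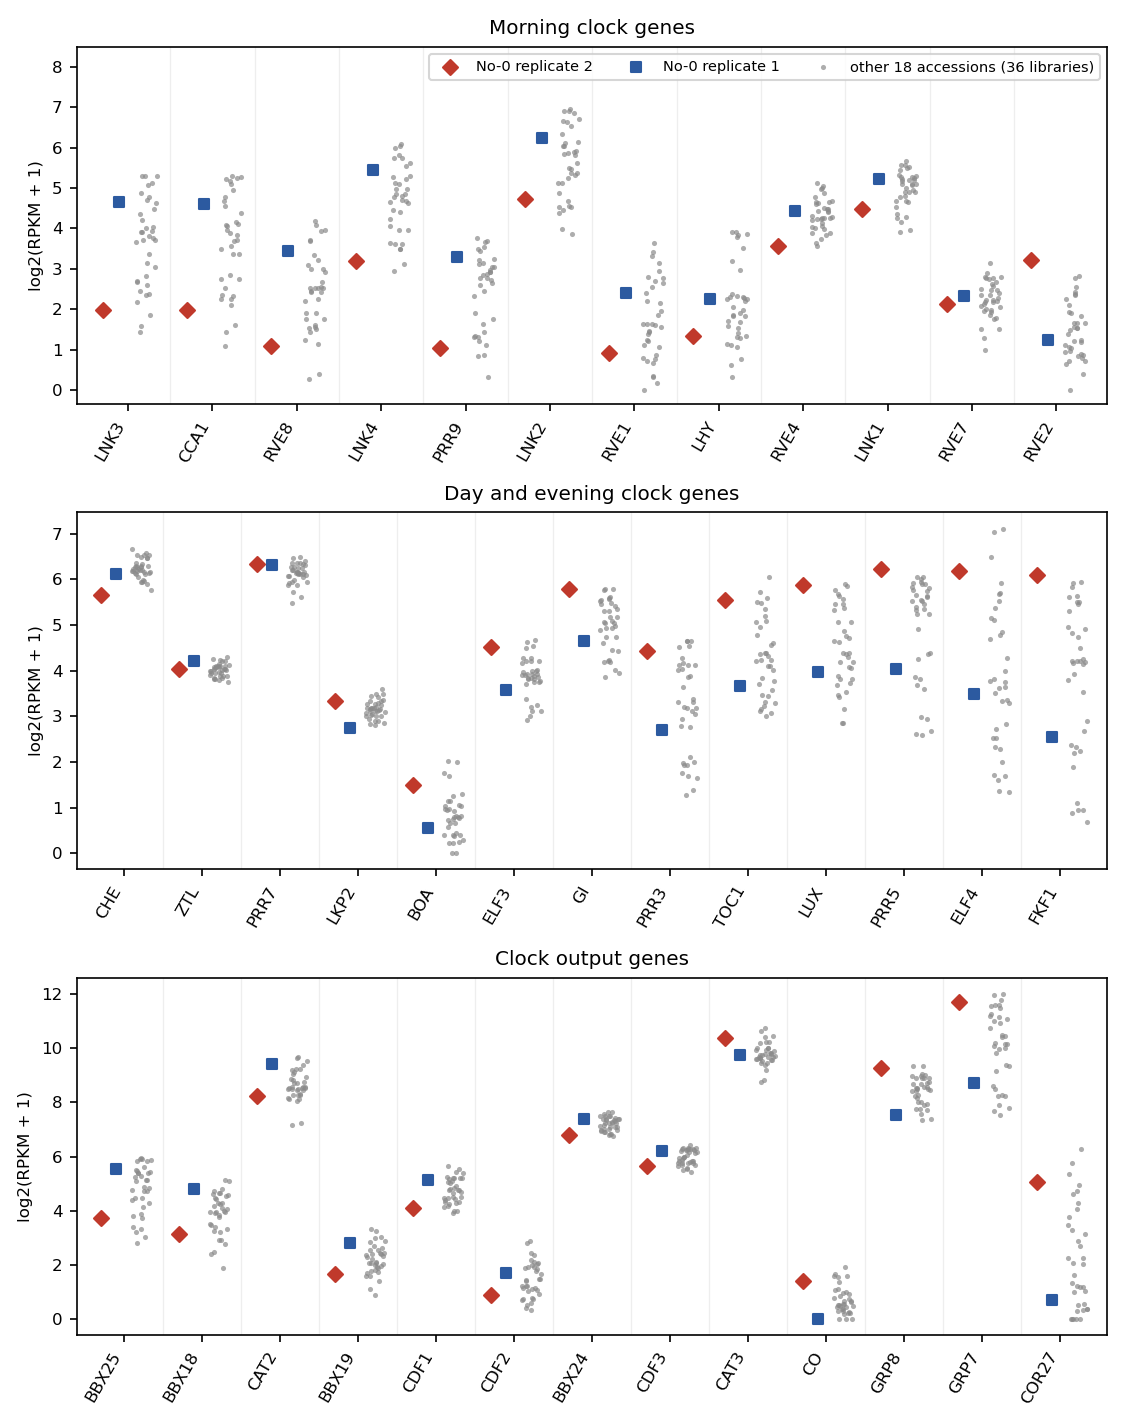
Levels as log2(RPKM + 1) of morning (top), day and evening (middle) and output (bottom) clock genes in No-0 replicate 2 (red diamonds), No-0 replicate 1 (blue squares) and the 36 libraries of the other accessions (grey). Most red diamonds lie below the blue squares among morning genes and above them among evening genes, and nearly all lie within the grey range.

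The evening element, AAAATATCT or its reverse complement AGATATTTT, is the promoter motif through which CCA1, LHY and REVEILLE proteins bind evening genes. Windows of 250 bases upstream of the annotated gene start were searched on both strands in RefSeq's TAIR10.1. Of the 10 clock genes that differed by at least 2 between the No-0 libraries 4 hold it, all higher in replicate 2. The windows of 3 of them, FKF1, GRP7 and PRR5, are shown for that reason with the motif in capitals, read 5′ to 3′ on the strand of the gene: FKF1 at chr1:25508389-25508638 (plus strand), GRP7 at chr2:9266558-9266807 (minus strand) and PRR5 at chr5:8358547-8358796 (minus strand).
FKF1: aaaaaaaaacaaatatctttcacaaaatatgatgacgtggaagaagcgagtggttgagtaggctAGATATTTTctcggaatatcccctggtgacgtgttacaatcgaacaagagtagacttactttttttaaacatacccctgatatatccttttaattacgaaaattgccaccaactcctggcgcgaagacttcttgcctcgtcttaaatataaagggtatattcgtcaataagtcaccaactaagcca
GRP7: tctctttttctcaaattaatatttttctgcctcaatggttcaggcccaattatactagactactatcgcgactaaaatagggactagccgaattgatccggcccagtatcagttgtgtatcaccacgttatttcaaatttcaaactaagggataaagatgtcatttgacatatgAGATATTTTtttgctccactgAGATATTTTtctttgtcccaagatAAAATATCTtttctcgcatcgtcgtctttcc
PRR5: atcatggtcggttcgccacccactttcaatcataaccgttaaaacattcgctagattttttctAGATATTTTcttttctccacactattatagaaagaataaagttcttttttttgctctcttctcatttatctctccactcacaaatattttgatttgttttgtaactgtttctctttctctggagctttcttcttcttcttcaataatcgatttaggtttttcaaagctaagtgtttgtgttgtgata

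GRP7 holds 3 copies, FKF1 and PRR5 1 each. Over the genes with at least 10 RPKM in a No-0 library, the motif was found in 31 of 267 windows of genes higher in replicate 2 (11.6%) and in 3 of 181 of those higher in replicate 1 (1.66%), beside 277 of 9820 of all such genes (2.82%). Among the clock lists 5 of 13 day and evening genes, 5 of 13 output genes and 1 of 12 morning genes hold it. These sequences are those of the Col-0 reference and not of No-0, and a match describes letters in a window, not binding.

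Jasmonate and ethylene defence held the highest count of these differences, 18, but not the highest share of its genes. Differences of at least 1 were also found in 17 of 23 cold, drought and abscisic acid genes and 9 of 13 clock output genes, beside 6.44% of all genes. Of 27 measured jasmonate and ethylene genes 18 were higher in replicate 2 by at least 1, beside 3.47% of all genes. In replicate 1, 0 of the 27 were higher, beside 2.97%, and the median difference of the 27 was 1.29. At most 4 of them differed by that much in any other accession, Col-0 having the 4, and 19 of 27 differed more in No-0 than in any other accession. Replicate 2 was the highest of all 38 libraries in 12 of the 27, beside 4.07% of all genes, and replicate 1 in 0 of them, beside 2.05%.

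The difference ran through synthesis and response. The allene oxide cyclases AOC1 and AOC2, which form the jasmonate ring, read 96.9 and 398 RPKM in replicate 2 against 26.8 and 147 RPKM in replicate 1, and AOC3 read 8.74 RPKM in replicate 2 and was listed at 0 in replicate 1. Upstream and downstream of them, the lipoxygenase LOX4 read 8.47 RPKM in replicate 2 and 1.74 RPKM in replicate 1, and the reductase OPR3 43.4 and 19.2 RPKM. Replicate 2 was above all other libraries in AOC1, AOC3, LOX4 and OPR3. Of the JAZ repressors, which jasmonate both destroys and induces, JAZ1 read 53.4 RPKM in replicate 2 and 8.66 RPKM in replicate 1, JAZ9 124 and 30.9 RPKM and JAZ5 12.4 and 1.16 RPKM. All 3 exceeded the 36 other libraries in replicate 2 and lay within their range in replicate 1.

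MYC2, the transcription factor that JAZ proteins hold back, read 40.6 RPKM in replicate 2 and 13.8 RPKM in replicate 1, against 9.09 to 30.9 RPKM in the others. ORA59, which joins jasmonate and ethylene signals, read 7.72 and 1.06 RPKM in replicates 2 and 1. The storage proteins did not follow together: VSP1 read 34.8 RPKM in replicate 2 and 15.7 RPKM in replicate 1, VSP2 37.6 and 46.8 RPKM.

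Cold, drought and abscisic acid genes split. Of 23 measured, 13 were higher in replicate 2 by at least 1 and 4 higher in replicate 1, beside 3.47% and 2.97% of all genes. Their median difference was 1.13, and at most 3 differed by that much in another accession (Oy-0). Replicate 2 was the highest of 38 libraries in 5 of them and replicate 1 in 2, beside 4.07% and 2.05% of all genes. The stress regulators ZAT12 and DREB2A read 18.4 and 13.6 RPKM in replicate 2 against 1.21 and 0.902 RPKM in replicate 1. CBF1, an activator of cold genes, read 5.18 RPKM in replicate 2 and 0.349 RPKM in replicate 1, and its targets RD29A and KIN1 read 67.2 and 76.9 RPKM in replicate 2 against 14.8 and 18.6 RPKM in replicate 1. The opposite order held for RAB18, a dehydrin induced by abscisic acid, with 12.2 RPKM in replicate 2 and 34.0 RPKM in replicate 1, and for the lipid transfer gene LTP3, with 3.83 and 14.0 RPKM. The phosphatase HAB1 and the transcription factor ABF3 of abscisic acid signalling were also higher in replicate 1, by 1.26 and 1.05 on the log2 scale.

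**Figure D5:**
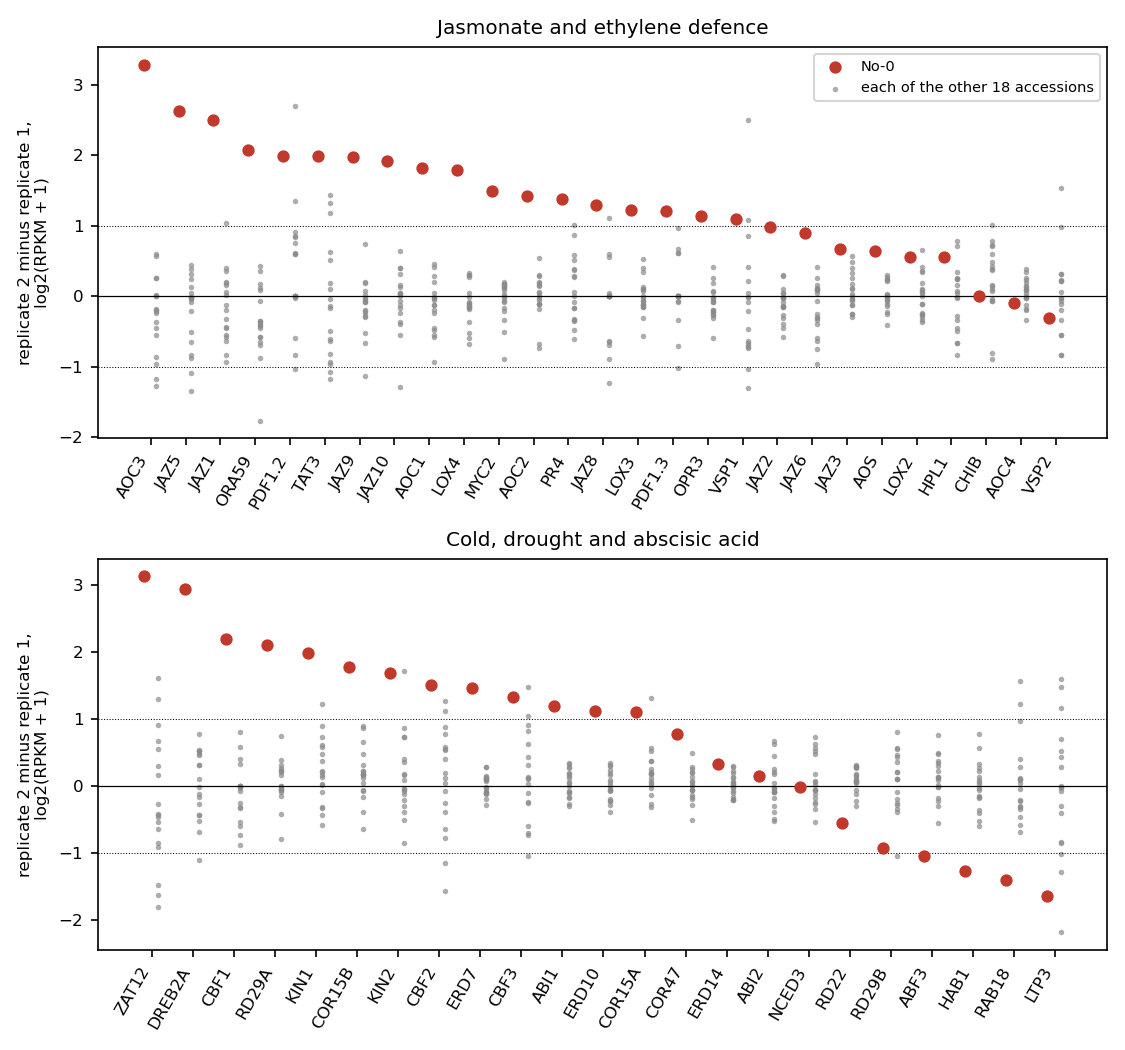
Difference of log2(RPKM + 1) between replicate 2 and replicate 1 for each measured gene of the jasmonate and ethylene list (top) and of the cold, drought and abscisic acid list (bottom), in No-0 (red) and in each of the other 18 accessions (grey); dotted lines mark 1 and -1. Red points reach 3.28 at AOC3 and 3.13 at ZAT12, while most grey points lie between the dotted lines.

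Genes outside these lists, with at least 10 RPKM in a No-0 library, differed as well. BT2, a scaffold protein that responds to nitrate and hormones, read 57.3 RPKM in replicate 2 and 2.98 RPKM in replicate 1. FAMT, a carboxyl methyltransferase, and NATA1, an acetyltransferase induced by jasmonate, read 12.1 and 11.7 RPKM in replicate 2 and were listed at 0 in replicate 1. STZ, a zinc finger protein of stress responses, read 24.1 RPKM in replicate 2 and 1.06 RPKM in replicate 1, the ethylene response factor ERF2 40.0 and 2.40 RPKM, and the expansin EXPA16 19.8 and 1.19 RPKM. Some of these genes varied widely elsewhere too. The libraries of Col-0 differed in NATA1 by 3.58 in size on the log2 scale, beside 3.67 in No-0. For EXPA16, STZ, BT2, ERF2 and FAMT the largest such value elsewhere was 2.46, 2.35, 1.68, 1.39 and 1.29, beside 3.24, 3.61, 3.87, 3.59 and 3.71 in No-0.

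On the other side, the lipid transfer gene LTP4 read 1.03 RPKM in replicate 2 and 13.1 RPKM in replicate 1, and the ammonium transporter AMT1;2 3.51 and 22.2 RPKM. COL2 and BBX16, both B-box proteins, read 4.71 and 6.14 RPKM in replicate 2 against 23.6 and 28.7 RPKM in replicate 1, and SIGE, a plastid sigma factor, 3.93 and 19.4 RPKM. G3Pp1, a putative glycerol phosphate transporter, LEA3, a late embryogenesis protein, and UP6, of unknown function, were lower in replicate 2 by 1.90, 1.88 and 1.81 on the log2 scale. In all 10 genes with a symbol furthest higher in replicate 1, which also include CCA1 and BBX25, both No-0 libraries lay within the range of the other 36. The largest replicate difference of LTP4 in another accession was 1.98 in size (Po-0), beside -2.79 in No-0. For the rest of the 10 it ran from 0.370 (SIGE) to 1.04 (LEA3).

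The difference between the No-0 libraries touches some of the calls against the other accessions. Over all genes, 3.46% were called higher in No-0 and 3.67% lower. In the jasmonate list 5 of 27 genes were called higher in No-0 (JAZ1, JAZ10, LOX3, LOX2 and AOS) and 1 lower, the chitinase CHIB, whose call was lost without either No-0 library (adjusted p = 0.0644 and 0.0897 without replicates 1 and 2), with a median difference of 0.40. In the cold list 4 of 23 were called higher (CBF1, RD29A, COR15A and NCED3) and 0 lower at an adjusted p under 0.05 (9 and 0 at an unadjusted p under 0.05), with a median of 0.48. Without No-0 replicate 2 none of these 9 higher calls was made; the adjusted p without it was 0.94 for JAZ1, 0.952 for JAZ10 (0.0643 with the lane as a block), 0.652 for LOX3, 0.643 for LOX2, 0.827 for AOS, 0.985 for CBF1, 0.998 for RD29A and 0.727 for COR15A. JAZ1 then stood -0.079 from the mean of the others on the log2 scale, against 1.17 with both libraries, a call that was also lost, narrowly, without any of several libraries of other accessions. NCED3, which read 3.11 and 3.15 RPKM in No-0 replicates 2 and 1, was lost without either (adjusted p = 0.166 and 0.208 without replicates 1 and 2). Of the 1433 genes called in No-0, 86 differed by at least 1 between its libraries, beside 1294 of all 20101 genes tested (6.44%).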

How the data were processed

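The deposited files hold, per the labels, gene expression of whole seedlings measured by sequencing polyadenylated RNA. Per the file headers and values, the authors deposited 1 RPKM value per gene and library, with the code -1 where no value is given, and the sources used here do not explain that code. The genome builds TAIR9 and TAIR10 are named in the submitters' processing notes; the aligner, the counting and the treatment of reads that differ from the reference are not given in the sources used here, and their part in any value was not tested. The groups of libraries come from the labels.

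From these values log2(RPKM + 1) was computed for nuclear genes with a value in all 38 libraries and at least 1 RPKM in at least 2 of them. limma 3.58.1 in R 4.3.3 fitted 1 mean per accession with a trended prior, and the contrast was No-0 minus the unweighted mean of the other 18 accessions, with Benjamini-Hochberg adjustment over 20101 genes and a threshold of 0.05. The pair of No-0 libraries was described by replicate 2 minus replicate 1, without a test. Depth was estimated from the step of low values: at the depth chosen, 16.5 to 26.7% of low values were whole reads within 0.03 reads, so counts could not be recovered and no count test was run. The scripts were tested on simulated data.

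The members and gene lists were chosen with earlier results of these data known. The named genes were the largest differences among genes set apart, up to 4 called members per list, the 10 largest replicate differences each way and the clock lists; further list members named were chosen after their values were seen, and some items are not reported here. By the labels the replicate number follows the lane within a lane pair, except in Zu-0, so same-numbered libraries of a lane pair share a lane. The correlation of replicate differences was 0.00 to 0.09 between No-0 and its lane partners, and -0.11 to 0.12 over the 25 pairs of accessions that share lanes. Names, coordinates, shared words of 31 bases and promoter sequences come from RefSeq's TAIR10.1, in which 98.5% of 33323 nuclear genes had an entry. Alternatives tried were pseudocounts of 0.1 and 5, filters, quantile and median scaling, a replicate block, the lane as a block (chosen after seeing the data), the lane pair, the accession as the unit and leaving out each library.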

Additional observations from a re-analysis of the deposited data

Results flagged for a closer look

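Outside the nuclear genes, 23707 further features had a value in all libraries: 23326 transposable elements and 381 genes that the deposited files name as new. A level of at least 5 RPKM in both No-0 libraries, and at least 1 above the highest other library on the log2(RPKM + 1) scale, was reached by 1 of them. That feature, N_new_gene_461, read 29.3 RPKM in No-0 replicate 2 and 34.0 RPKM in No-0 replicate 1, against a median of 1.69 RPKM and a highest value of 11.6 RPKM in the other 36 libraries. It was singled out as a signal in data that the comparisons do not use, it has no annotation in the reference used here, and it was not tested.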

How the results depend on the processing

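Against the other 18 accessions, 1433 genes passed (695 higher, 738 lower) and 62 were set apart (31 each way). The lane pair gave 569 (229 higher, 340 lower) and 280 set apart (114 and 166), with fewer libraries to exceed. The accession as the unit gave 12 (8 and 4), of which 11 set apart (7 and 4). A pseudocount of 5 left 21 set apart (11 and 10), and a minimum of 5 RPKM left 19 of the higher. Leaving out 1 library gave 879 to 1513 genes (404 to 804 higher, 475 to 774 lower) and 60 to 280 set apart (30 to 172 and 30 to 108); the counts of 879 and 280 came without No-0 replicates 2 and 1. Of the list members 71 were called, 29 in the lane pair, 0 with the accession as the unit and 65 to 108 without 1 library. With the replicate number as a block 1385 genes passed and 62 were set apart. With the lane within each lane pair as a replicate block, chosen after seeing the data, 1393 passed and 62 were set apart; of 132 single genes 2, CRY2 and JAZ10, lost their call.

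Between the No-0 libraries 1294 genes differed (697 higher in replicate 2, 597 in replicate 1): 2607 (1319 and 1288) with a pseudocount of 0.1, 332 (212 and 120) with 5 and 827 (463 and 364) from 5 RPKM. Of the 449 abundant genes a pseudocount of 5 left 283, with 98 higher in replicate 1. Direction turned in the lane pair for RBCS1B (-0.035), BCAT4 (0.82), CYP79F1 (0.40) and FLC (2.26), and for JAZ1, which ran from -0.079 without No-0 replicate 2 to 2.42 without replicate 1; the cause was not tested. Of 6446 values of 132 single genes, 338 fell short of the threshold under an alternative, but most alternatives only left out 1 library of another accession. With the accession as the unit 119 of the 132 genes fell short, and in the lane pair 66 did and 4 turned direction. Depth limits genes near 0.670 RPKM.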
